A study of Mus musculus with 4 samples.

Results

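The Wnt signaling genes described here are 10 of the 32285 genes counted in the deposited tables. They were chosen by symbol and comprise 5 ligands (Wnt4, Wnt5a, Wnt5b, Wnt7b and Wnt11), 2 R-spondins (Rspo1 and Rspo3), 2 secreted inhibitors (Sfrp1 and Sfrp2) and the R-spondin receptor Lgr4, and all 10 symbols were found in all 4 libraries. Each library is 1 mammary tumor sample from 1 mouse at 17 to 18 weeks of age, profiled with droplet single-cell RNA sequencing, which counts unique molecular identifiers (UMIs, each marking 1 captured RNA molecule) per gene and cell barcode. Replicates 1 and 3, called Cre- 1 and Cre- 3, had the genotype MMTV-Cre-; Frmd8fl/fl; PyMT, while replicates 2 and 4, called Cre+ 2 and Cre+ 4, were MMTV-Cre+; Frmd8fl/fl; PyMT. All 4 mice therefore carried both floxed Frmd8 alleles and the polyoma middle T oncogene, and the genotypes differed in the Cre transgene, which the MMTV promoter drives mainly in the luminal epithelium and which removes inner exons of Frmd8. The mice of both genotypes were littermates, from floxed and PyMT lines on a C57BL/6 background. The cells had been sorted by flow cytometry before capture, with a gate not given in the sources used here.

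Wnt proteins are lipid-modified secreted ligands that bind Frizzled receptors together with LRP, ROR or RYK co-receptors, and they act either by stabilizing β-catenin or through β-catenin-independent routes. R-spondins bind LGR receptors and keep Frizzled receptors at the cell surface, whereas secreted Frizzled-related proteins bind Wnt ligands outside the cell and limit their access to the receptors. In the mammary gland, Wnt4 is known as a progesterone-induced signal of hormone-sensing luminal cells, R-spondins and Wnt ligands sustain basal and progenitor cells, and fibroblasts are a source of both ligands and inhibitors.

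Barcodes with at least 1000 UMIs and at most 20% mitochondrial UMIs were kept, which left 4922 cells of Cre- 1, 5918 of Cre- 3, 5609 of Cre+ 2 and 7123 of Cre+ 4, with medians of 12455 to 13072.5 UMIs. Pairs of libraries shared 6 to 16 barcodes. Cre+ 4 was deposited with all barcodes and made with another Cell Ranger version than the other 3 libraries, so the fits without replicate 4 are those within 1 version. Cells were assigned to 8 classes by the number of marker genes with a UMI: luminal cells (9448 in the 4 libraries), hormone-sensing luminal cells (391), basal cells (178), squamous cells (63), fibroblasts (1649), mural cells (270), endothelial cells (674) and immune cells (9728), and 1171 cells stayed in no class. The luminal class is the rest of the epithelial cells, tumor cells included. Hormone-sensing cells numbered 307 in Cre- 1, 78 in Cre+ 2, 6 in Cre- 3 and 0 in Cre+ 4, squamous cells were almost all from Cre+ 4 (62 of 63), and basal cells numbered 9, 14, 10 and 145 in Cre- 1, Cre- 3, Cre+ 2 and Cre+ 4. The gate required at least 5 of their own 10 markers in each cell, so finding these markers is no check of the classes. The sums held 10 of 10 basal markers in every library, 8 to 10 of 10 hormone-sensing markers and 9 of 10 squamous markers in Cre+ 4. Other epithelial markers were found beside them. The 10 basal cells of Cre+ 2 held luminal progenitor markers at 14132 CPM (UMIs divided by all UMIs of the sum and scaled to 1000000) and alveolar markers at 10554 CPM beside basal markers at 9568 CPM, and the squamous cells of Cre+ 4 held basal markers at 7146 CPM beside squamous markers at 19178 CPM. Hormone-sensing cells of Cre- 1, Cre- 3 and Cre+ 2 held luminal progenitor markers at 3908, 4178 and 5741 CPM. Their own markers were at 3677, 2821 and 3485 CPM. Fibroblast markers were also present in basal cells, with 9 to 11 of 12 markers and a summed level of 445 to 1470 CPM, against 49.1 to 86.8 CPM in luminal cells and 42378 to 53119 CPM in fibroblasts. In hormone-sensing cells the fibroblast markers were at 86.7, 51.3 and 365 CPM in Cre- 1, Cre- 3 and Cre+ 2. The part of these other markers in the basal and hormone-sensing values was not tested. Frmd8, the floxed gene, was at 24.3 and 24.2 CPM in luminal cells of Cre- 1 and Cre- 3 and at 5.20 and 10.8 CPM in those of Cre+ 2 and Cre+ 4. In the same order it was at 29.2, 29.7, 0 and 2.24 CPM in basal cells and 17.5, 19.3, 14.2 and 12.1 CPM in fibroblasts. Immune cells were at 29.1, 26.6, 20.1 and 15.9 CPM, endothelial cells at 30.9, 33.3, 27.1 and 29.4 CPM and mural cells at 35.1, 24.8, 25.5 and 30.4 CPM. UMIs at the intact end of a deleted transcript would still be counted.

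Levels are CPM of the summed counts of a class in a library, and only sums of at least 10 cells (26 of them) entered means and tests. Values per library are given in the order Cre- 1, Cre- 3, Cre+ 2, Cre+ 4 unless stated. Classes were compared over mice with the quasi-likelihood test of edgeR with the mouse as a block, and genotypes with the same test, with p-values adjusted for all genes in the fit by the Benjamini-Hochberg method and called below 0.05. Levels are not compared between genes here. For genotypes, p-values rest on the spread between these mice within a class. For classes, they rest on the spread left after the block, pooled over all classes in the fit. Intervals are exact 95% intervals and cover counting error only. By mean level, 4 of the 10 genes were highest in fibroblasts (Sfrp2, Sfrp1, Wnt11 and Rspo3), 3 in hormone-sensing cells (Wnt4, Wnt7b and Wnt5a) and 3 in basal cells (Lgr4, Wnt5b and Rspo1). For Wnt5a, Lgr4, Wnt5b, Rspo1 and Rspo3 the range of the highest class overlapped that of the next class.

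**Figure D1:**
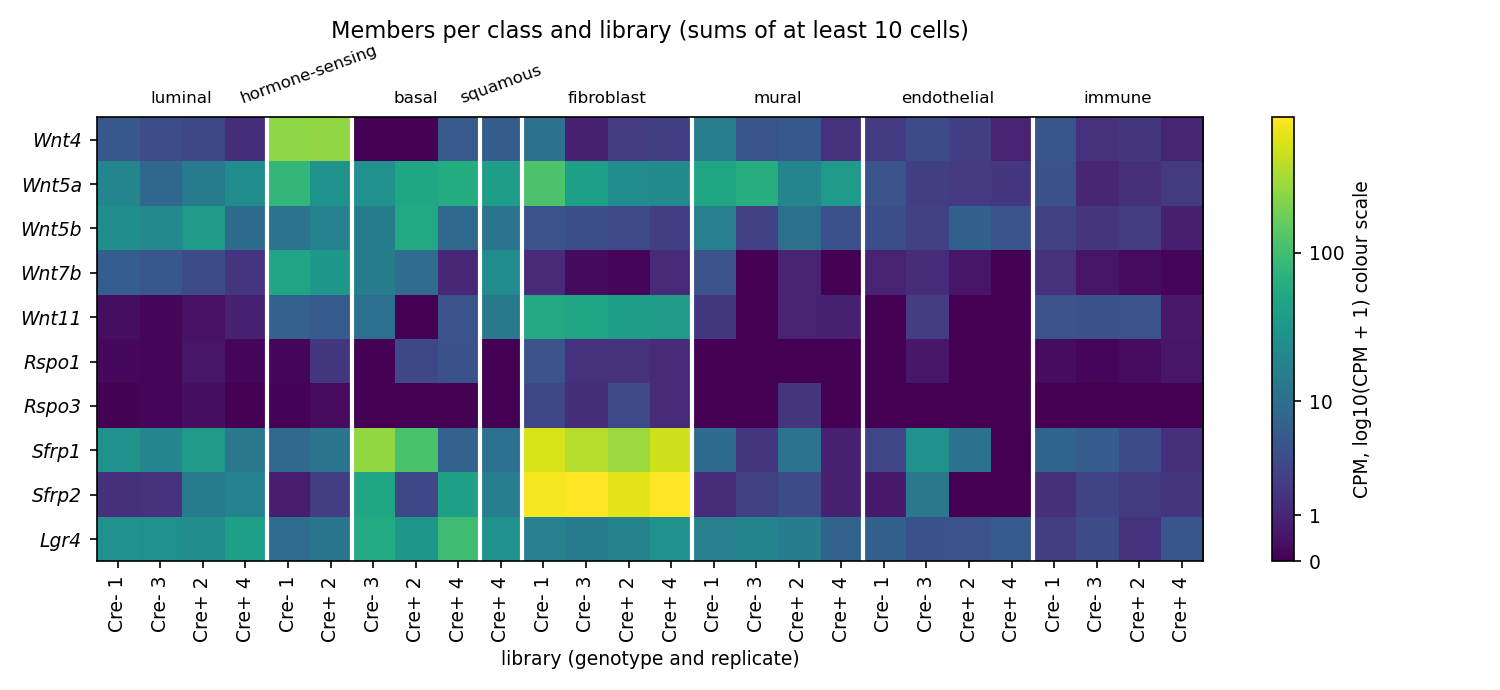
Level of each of the 10 genes (rows) in each class and library (columns) as colour, in CPM on a log10(CPM + 1) scale, for the 26 sums of at least 10 cells. Wnt4 is brightest in the 2 hormone-sensing columns, while Sfrp1, Sfrp2 and Wnt11 are brightest in all 4 fibroblast columns.

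Among the ligands, Wnt4 marked the hormone-sensing cells. It was counted at 245.7 CPM in those of Cre- 1 (4216 UMIs, interval 238 to 253) and at 255.3 CPM in those of Cre+ 2 (1185 UMIs, 241 to 270.3), and the 6 such cells of Cre- 3 were at 304.6 CPM (95 UMIs). In luminal cells it was at 5.06, 3.76, 3.19 and 1.41 CPM, so the ranges of the 2 classes lay far apart in both genotypes. The difference was 5.78 on the log2 scale (SE 0.49, adjusted p = 2.9e-07), or 55.0-fold. Hormone-sensing cells held 78.2% of all 7030 Wnt4 UMIs while they held 4.598% of all UMIs. In every other class the mean was at most 6.94 CPM, and those other classes all overlapped their neighbors in the order of levels. A Wnt4 UMI was found in 95.1% of the hormone-sensing cells of Cre- 1 and 96.2% of those of Cre+ 2 (medians of 44767 and 45180.5 UMIs per cell), against 2.79% and 2.15% of immune cells (medians of 7711 and 11285). Luminal cells of these mice had shares of 8.48% and 4.26% (medians of 18918 and 12850). With each cell thinned to 2000 UMIs, the shares were 35.2% and 34.6% in hormone-sensing cells. They were then 1.80% and 1.07% in luminal and 0.541% and 0.490% in immune cells. The promoter of Wnt4 is shown because this gene had the largest difference of the 10 in the 2 comparisons of epithelial classes. It is the stretch of 250 bases before the annotated start on chr4:137277385-137277634, plus strand of GRCm38.p6, from RefSeq, with matches to the GC box GGGCGG on either strand in capitals.

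Wnt4 promoter: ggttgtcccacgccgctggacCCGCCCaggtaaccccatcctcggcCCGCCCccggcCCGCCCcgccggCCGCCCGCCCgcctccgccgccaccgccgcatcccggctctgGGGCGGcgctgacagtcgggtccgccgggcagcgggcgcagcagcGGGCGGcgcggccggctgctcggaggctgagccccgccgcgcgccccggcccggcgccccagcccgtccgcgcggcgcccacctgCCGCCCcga

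Its GC content of 85.2% exceeded that of 99.9% of 32851 promoters of the same length (median 52.4%). It held 8 GC box matches, some of them overlapping, and 32.7% of all promoters held at least 1. No match was found in it to the TATA box TATAAA, the TCF/LEF sequence CTTTGA or the hormone receptor half-site AGGTCA, which were searched on both strands and which 12.4%, 13.8% and 14.0% of all promoters held. No other hormone receptor sequence was searched, so sites of receptors that bind other sequences are not covered.

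Wnt7b, a ligand that can act through β-catenin, was also highest in hormone-sensing cells. It was at 47.5 CPM in Cre- 1 and 33.4 CPM in Cre+ 2, against 6.26, 5.12, 3.61 and 1.79 CPM in luminal cells. Both hormone-sensing values lay above all 4 luminal values, a difference of 2.81 on the log2 scale (SE 0.54, adjusted p = 0.00137), and the call was lost without replicate 2 (adjusted p = 0.125). Hormone-sensing sums came from 2 mice, so a fit without replicate 1 or 2 rests on 1 such sum, which is assumed to vary like the other classes. The squamous cells of Cre+ 4 held 23.7 CPM, between these classes and with no replicate. The basal values (15.7, 9.77 and 1.12 CPM in Cre- 3, Cre+ 2 and Cre+ 4) rested on 3 to 9 UMIs each and overlapped the luminal ones. In fibroblasts Wnt7b was at 1.23, 0.172, 0.123 and 1.21 CPM, below luminal cells by the test (log2 fold change -3.16, SE 0.60, adjusted p = 0.000164) and within the range of immune cells (0.0880 to 1.58 CPM).

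Wnt5a, a ligand mostly of β-catenin-independent signaling, was spread over several classes. In hormone-sensing cells it was at 80.5 CPM in Cre- 1 and 29.1 CPM in Cre+ 2, in basal cells at 27.9, 48.8 and 60.6 CPM in Cre- 3, Cre+ 2 and Cre+ 4, and in mural cells at 49.3, 61.4, 20.3 and 35.3 CPM. Fibroblasts ranged from 23.0 to 120.2 CPM and luminal cells from 8.32 to 24.2 CPM. The means of hormone-sensing cells, fibroblasts, basal cells, mural cells and squamous cells (54.8, 52.3, 45.8, 41.6 and 39.0 CPM) had overlapping ranges between neighbors in that order, whereas endothelial and immune cells held at most 4.50 CPM. Against luminal cells, Wnt5a was higher in fibroblasts (log2 fold change 1.55, SE 0.37, adjusted p = 0.00129) and in basal cells (1.54, SE 0.44, adjusted p = 0.0200). The difference in hormone-sensing cells was 1.32 (SE 0.45, adjusted p = 0.0504) and missed the threshold. The basal call was lost without the mouse as a block (adjusted p = 0.125) and without replicate 1, 2 or 4. The basal log2 fold change turned to -0.32 when only epithelial cells with at most 1 fibroblast marker were kept. That fit rests on 1 basal sum, the 36 cells of Cre+ 4, since Cre- 1, Cre- 3 and Cre+ 2 kept 0, 2 and 1 basal cells. Within hormone-sensing cells, a Wnt5a UMI was found in 80.5% of the Wnt4-positive cells of Cre- 1 and 60.0% of those of Cre+ 2, and a Wnt7b UMI in 80.5% and 72.0%, so most of these cells held more than 1 of the 3 ligands. Deeper cells hold more UMIs of every gene, and these shares were not corrected for depth.

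**Figure D2:**
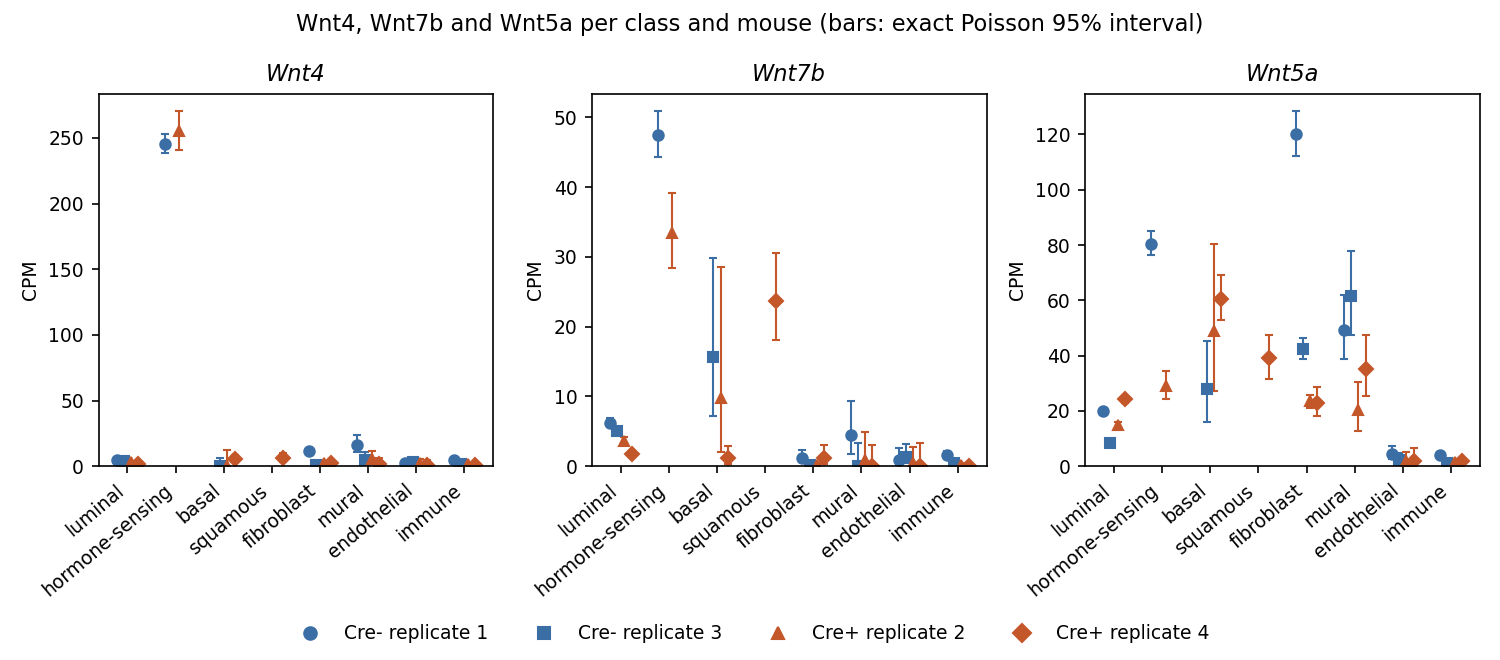
CPM of Wnt4, Wnt7b and Wnt5a per class, with 1 symbol per mouse (blue Cre-, orange Cre+) and exact Poisson 95% intervals as bars. Wnt4 stands at 245.7 and 255.3 CPM in hormone-sensing cells and at no more than 16.2 CPM elsewhere, while Wnt5a is spread over the epithelial, fibroblast and mural classes.

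Wnt5b, related in sequence to Wnt5a, was highest by mean level in basal and luminal cells (26.6 and 23.4 CPM). Luminal cells held 85.8% of its 6570 UMIs while they held 51.5% of all UMIs. Their levels were 26.3, 21.9, 35.6 and 9.61 CPM, and Cre+ 2 was the highest and Cre+ 4 the lowest of the 4. Basal cells were at 15.7, 55.3 and 8.70 CPM in Cre- 3, Cre+ 2 and Cre+ 4 and did not differ from luminal cells beyond their spread (log2 fold change -0.13, SE 0.34, adjusted p = 0.857). Hormone-sensing cells were at 11.5 and 17.9 CPM in Cre- 1 and Cre+ 2, below the luminal cells of the same mice (-1.18, SE 0.34, adjusted p = 0.0224). Between 81.9% and 87.8% of the UMIs in those hormone-sensing cells came from the 10% of cells with the most of them. The call was lost without the mouse as a block (adjusted p = 0.414) and without replicate 1 or 2. Fibroblasts were at 4.52, 3.96, 3.31 and 2.43 CPM, below every luminal value (-2.53, SE 0.29, adjusted p = 4.1e-07). In luminal cells with at least 5 of 10 alveolar markers, which include the caseins, Wnt5b was at 32.6, 24.5, 39.8 and 14.5 CPM against 23.8, 21.3, 33.6 and 9.09 CPM in the other luminal cells, higher in 4 of 4 mice (p = 0.125 when signs are permuted exactly over mice, the lowest value 4 mice can give). Wnt5a and Lgr4 were also higher, and Wnt7b and Wnt11 lower, in 4 of 4 mice, each with p = 0.125 by the same permutation test. The cells with these markers were deeper in Cre- 1 and Cre+ 2, with medians of 46845 and 47382 UMIs against 15047.5 and 11185. Depth thus enters this split, and its part was not tested.

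Wnt11, a ligand known mostly for β-catenin-independent signaling, was the fibroblast ligand of the set. Fibroblasts held 54.3, 49.8, 38.9 and 37.3 CPM and 69.6% of its 2491 UMIs, while luminal cells held 0.285, 0.120, 0.394 and 0.855 CPM. These ranges lay far apart in all 4 mice (log2 fold change 6.76, SE 0.66, adjusted p = 5.3e-08). Mural and endothelial cells held at most 2.16 CPM, and both were lower than fibroblasts (mural -5.70, SE 0.92, adjusted p = 0.000114, and endothelial -6.07, SE 0.85, adjusted p = 8.2e-06). Hormone-sensing cells, at 7.11 and 5.60 CPM, exceeded luminal cells (3.72, SE 0.75, adjusted p = 0.00210), although immune cells of the same mice held 4.47 and 4.51 CPM and the call was lost without replicate 1 or 2. Basal cells exceeded luminal cells as well (3.54, SE 1.00, adjusted p = 0.0177), on 22 UMIs in all, and that call was lost in every fit with 1 replicate left out. The promoters of Wnt11 and, for the inhibitors below, Sfrp2 are shown because both genes stood over 100-fold higher in fibroblasts than in luminal cells. Capitals mark matches to the 4 motifs named for Wnt4. They lie on the plus strand of GRCm38.p6 (RefSeq), at chr7:98834862-98835111 for the first annotated start of Wnt11 and chr3:83766071-83766320 for Sfrp2.

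Wnt11 promoter: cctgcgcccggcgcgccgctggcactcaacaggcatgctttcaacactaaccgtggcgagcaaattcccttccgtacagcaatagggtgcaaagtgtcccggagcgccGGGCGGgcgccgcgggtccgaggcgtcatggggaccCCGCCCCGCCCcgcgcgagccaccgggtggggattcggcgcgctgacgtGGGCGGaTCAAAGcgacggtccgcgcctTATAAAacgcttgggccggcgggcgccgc

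Sfrp2 promoter: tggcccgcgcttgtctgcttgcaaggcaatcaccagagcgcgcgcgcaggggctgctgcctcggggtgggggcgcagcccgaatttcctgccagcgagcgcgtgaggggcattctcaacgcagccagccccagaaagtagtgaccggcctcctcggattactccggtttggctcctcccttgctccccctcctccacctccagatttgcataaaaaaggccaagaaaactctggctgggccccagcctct

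The Wnt11 stretch held TATAAA 29 bases before the start, the TCF/LEF letters at 50 bases and 4 GC box matches, with a GC content of 70.8%. The Sfrp2 stretch, at 63.6% GC, held none of the 4 motifs. Of the 10 genes, 6 were in the RefSeq table, and Wnt5a, Wnt7b, Rspo3 and Sfrp1 were not.

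Both R-spondins were sparse, with 213 UMIs of Rspo1 and 129 of Rspo3 in the 23572 cells. Neither passed the filter on low counts within luminal cells, so each could be tested against luminal cells only because another class held it. Rspo3 was a fibroblast gene, with 3.15, 1.38, 3.31 and 1.21 CPM there and 75.2% of its UMIs, and its level in luminal cells was at most 0.301 CPM (log2 fold change 4.61, SE 0.65, adjusted p = 8e-05). No Rspo3 UMI was found in endothelial cells, a level at least 8.51-fold lower than in fibroblasts when 3 UMIs over the 4 libraries are taken as the limit, nor in basal or immune cells. Rspo1 was at 4.52, 1.63, 1.595 and 1.21 CPM in fibroblasts and at 0.0898 to 0.507 CPM in luminal cells, with fibroblasts above luminal cells in every mouse (3.77, SE 0.75, adjusted p = 0.000368). Mural cells held no Rspo1 UMI, at least 3.54-fold lower than fibroblasts. Rspo1 in basal cells was at 0, 3.26 and 4.21 CPM in Cre- 3, Cre+ 2 and Cre+ 4, from 0, 1 and 15 UMIs. The call against luminal cells (3.76, SE 1.06, adjusted p = 0.0206) rested mostly on Cre+ 4, without which the adjusted p was 0.720, and it was also lost without replicate 3 (adjusted p = 0.0685).

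Sfrp2 and Sfrp1 were high in fibroblasts of every mouse. Sfrp2 was at 691, 767, 589 and 753 CPM there, or 700.1 ± 80.8 CPM (SD, n = 4), and fibroblasts held 89.7% of its 29060 UMIs. Sfrp1 was at 511, 362, 283 and 473 CPM, or 407 ± 104 CPM (SD, n = 4). Among sums of at least 10 cells, no other class overlapped these ranges for either gene. The 9 basal cells of Cre- 1, too few for a sum, were at 400.6 CPM of Sfrp1 (137 UMIs, interval 336 to 474), inside the fibroblast range. They were at 5.85 CPM of Sfrp2 (2 UMIs). Against luminal cells the difference was 6.67 for Sfrp2 (SE 0.82, adjusted p = 1.05e-06) and 4.37 for Sfrp1 (SE 0.65, adjusted p = 1.06e-05). Mural cells, which share many matrix genes with fibroblasts, held 0.822 to 3.52 CPM of Sfrp2 and 0.822 to 11.4 CPM of Sfrp1 (log2 fold changes against fibroblasts -8.75, SE 1.05, and -6.58, SE 0.83, adjusted p = 4.7e-06 and 7.9e-06). Endothelial cells were lower too (-7.65, SE 0.92, and -5.77, SE 0.75, adjusted p = 1.3e-06 and 3.8e-06). Cre- 3 was the highest endothelial library for both genes, at 13.3 and 27.6 CPM, and the summed fibroblast markers in its endothelial cells were at 1561 CPM against 34.0 to 118 CPM in the other 3 libraries. Outside the stroma, Sfrp1 was also at 29.6, 19.9, 34.0 and 13.1 CPM in luminal cells, and at 258, 114 and 7.01 CPM in basal cells of Cre- 3, Cre+ 2 and Cre+ 4. The basal values differed so much between mice that the difference from luminal cells did not pass (1.70, SE 0.71, adjusted p = 0.104).

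Lgr4, the R-spondin receptor of the set, was found in all epithelial classes and in fibroblasts and mural cells. Basal cells were at 57.6, 32.6 and 97.6 CPM in Cre- 3, Cre+ 2 and Cre+ 4 and luminal cells at 27.9, 27.3, 25.2 and 41.6 CPM. Each basal value exceeded that of the luminal cells of the same mouse, but the difference did not pass (0.87, SE 0.31, adjusted p = 0.0560). Hormone-sensing cells were lower than luminal cells, at 9.68 and 12.3 CPM in Cre- 1 and Cre+ 2 (-1.34, SE 0.36, adjusted p = 0.0141), a call lost without replicate 1 or 2. Fibroblasts were at 17.1, 14.4, 18.5 and 28.2 CPM, and endothelial cells, at 4.33 to 6.90 CPM, were lower than these (-1.96, SE 0.33, adjusted p = 7.9e-05). Barcodes of Cre+ 4 with at most 100 UMIs, which hold free RNA, were at 23.9 CPM for Lgr4, 12.04 CPM for Sfrp2 and at most 8.23 CPM for each of the other 8 genes, and the immune cells of that library were at 4.86 CPM for Lgr4 and 1.83 CPM for Sfrp2.

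By the counts of calls, hormone-sensing cells against luminal cells had 3 of the 10 genes higher (Wnt4, Wnt7b and Wnt11) and 2 lower (Wnt5b and Lgr4), where 15.8% of 15846 genes tested were called, 7.51% as higher and 8.29% as lower. Basal against luminal cells had 3 higher (Wnt5a, Wnt11 and Rspo1) and 0 lower, against 18.8% of all genes called in either direction and 7.83% called as higher. Fibroblasts against luminal cells had 6 higher (Wnt11, Sfrp2, Sfrp1, Rspo3, Rspo1 and Wnt5a) and 2 lower (Wnt5b and Wnt7b), where 61.3% of all genes were called (32.0% higher and 29.3% lower) and the median log2 fold change was 2.66 for the 10 genes and -0.01 for all genes. Rspo1 and Rspo3 did not pass the filter on low counts within luminal cells and could be tested between classes only where another class held them. This limits their calls as higher than luminal cells and the median of 2.66. Mural cells against fibroblasts had 4 lower (Sfrp1, Sfrp2, Wnt11 and Rspo1) and 1 higher (Wnt5b, 1.03, SE 0.36, adjusted p = 0.0400), against 26.6% of all genes (10.3% higher and 16.3% lower). The mural call for Wnt5b was lost without the mouse as a block (adjusted p = 0.169), and that for Rspo1 in each fit with 1 replicate left out. Endothelial cells against fibroblasts had 7 lower and 0 higher, against 44.4% of all genes (20.2% higher and 24.2% lower), and Rspo1 was lost among them without replicate 1 (adjusted p = 0.138). In the stromal comparisons the share of genes called was high among all genes, so the counts there say little about these 10 genes in particular.

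**Figure D3:**
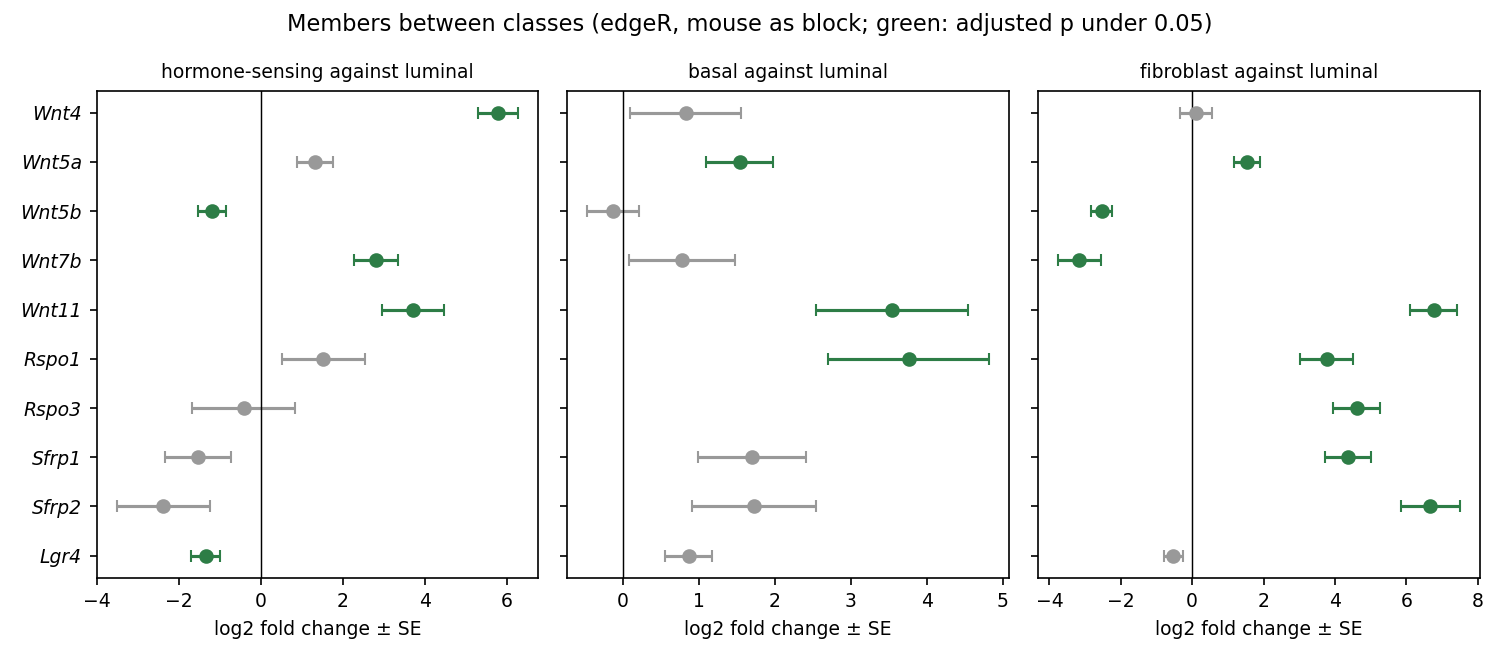
Log2 fold change with its standard error for each of the 10 genes in 3 comparisons between classes, with genes past the threshold in green. Rspo3 is left out of the basal panel, where basal cells held no UMI of it, and the widest separations are those of Wnt4 in hormone-sensing cells (5.78) and of Wnt11 (6.76) and Sfrp2 (6.67) in fibroblasts.

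The fibroblasts were not uniform for these genes. Cells with a UMI of Pi16 or Dpp4, markers of adventitial fibroblasts, numbered 171, 368, 486 and 111, and those with neither 130, 239, 102 and 42. The cells with neither were shallower, with medians of 19597, 2718, 2485 and 10901.5 UMIs against 22356, 22742, 29079.5 and 20817, so depth itself enters this split, and its part was not tested. Sfrp2 was at 888, 900.5, 626 and 827 CPM with a Pi16 or Dpp4 UMI and at 422, 278, 162 and 414 CPM without, so it was higher in 4 of 4 mice and the ranges did not overlap. Wnt5a went the other way, with 54.4, 35.9, 19.0 and 21.0 CPM with and 210.5, 66.9, 75.3 and 32.2 CPM without, lower in 4 of 4 mice. Lgr4 was lower with a UMI of either marker in 4 of 4 mice (means of 16.3 and 30.4 CPM), and Rspo3 was higher (2.77 and 0.406 CPM), with 0 UMIs in the cells without in 3 of 4 mice. Each of these 4 differences had a p of 0.125, the smallest that a two-sided exact sign-flip permutation test over 4 mice allows. Sfrp1 was lower in the cells with a UMI in 3 mice (301 against 801 CPM in Cre- 1, 314 against 537 in Cre- 3 and 229 against 908 in Cre+ 2) and higher in Cre+ 4 (499.6 against 353 CPM). Wnt11 was higher with a UMI in 3 mice and lower in Cre- 1 (44.7 against 67.6 CPM), and both genes had p = 0.25 by the same exact permutation test. Per cell, a Wnt11 UMI was found in 42.7%, 46.3%, 43.4% and 19.5% of fibroblasts with a Wnt5a UMI and in 26.5%, 18.3%, 23.7% and 12.5% of those without one. Deeper cells hold more UMIs of both genes, and these shares were not corrected for depth.

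**Figure D4:**
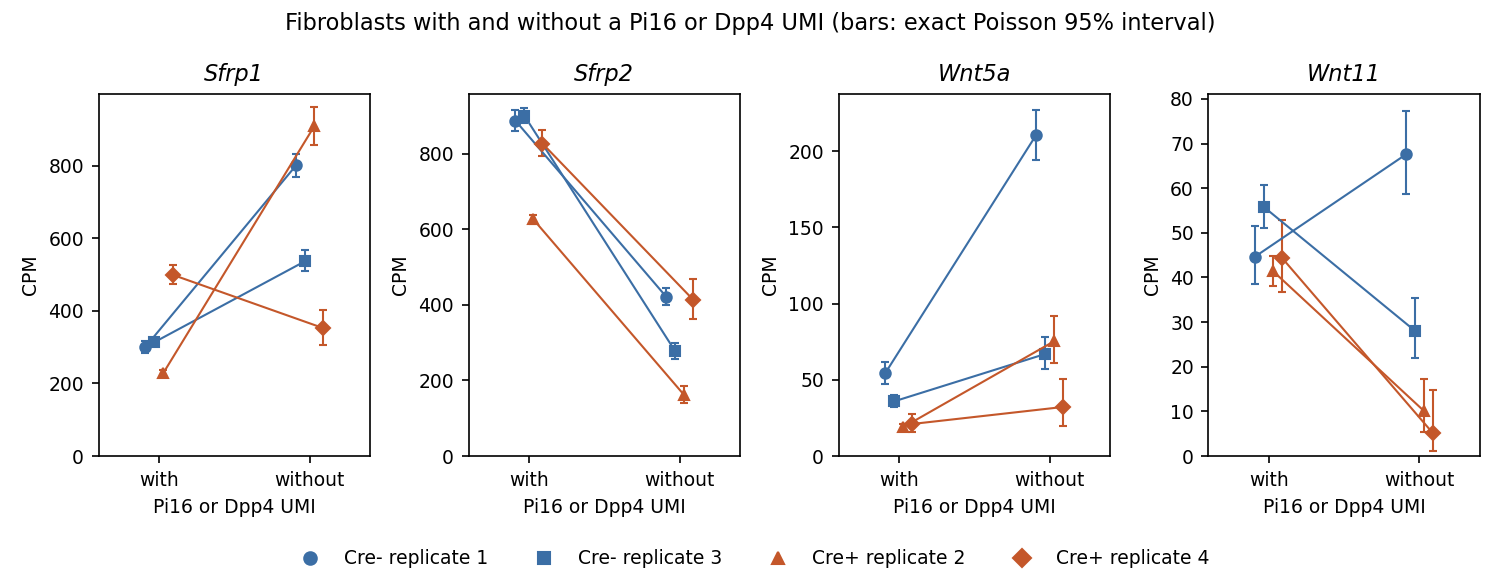
CPM of Sfrp1, Sfrp2, Wnt5a and Wnt11 in fibroblasts with and without a Pi16 or Dpp4 UMI, with a line per mouse (blue Cre-, orange Cre+) and exact Poisson 95% intervals as bars. All 4 lines fall for Sfrp2 and rise for Wnt5a, while 1 line of 4 runs against the others for Sfrp1 (Cre+ 4) and for Wnt11 (Cre- 1).

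The comparison of genotypes asked whether deletion of Frmd8 in the luminal epithelium went with other levels of these genes. The test was run in luminal cells, basal cells, fibroblasts and endothelial cells, and no gene of the set passed it. Frmd8, the floxed gene itself, was not called in luminal cells either (log2 fold change -1.51, SE 0.45, unadjusted p = 0.0231, adjusted p = 0.999). A gene left uncalled by this test is thus not shown to be unchanged. In luminal cells 0 of the 8 genes tested were called (0% of 15903 genes, with 470 at an unadjusted p under 0.05). In basal cells 5 were tested, with 1 Cre- sum (14 cells of Cre- 3) against the Cre+ sums of 10 and 145 cells. Cre- 1 had 9 basal cells, so that fit has no replicate in the Cre- arm. In fibroblasts 0 of 10 were called (0% of 13320, with 760) and in endothelial cells 0 of 3 (0.00936% of 10684, with 448). With 2 mice per genotype, exact permutation tests cannot go below p = 0.333. In simulated counts, the edgeR fit of luminal cells called 1.03% of genes changed by 1 on the log2 scale and 59.4% of those changed by 3. It also called 11 unchanged genes. The simulation changed 200 genes, and how many changed in these mice is not known, so these shares may not hold here. DESeq2 called 81, 0, 79 and 18 genes in these classes, and edgeR without replicate 2, with Cre+ 4 alone in its genotype, called 357 in luminal cells. Hormone-sensing cells gave sums in 1 mouse of each genotype, so no test of genotype was made there. In those mice Wnt4 was at 245.7 and 255.3 CPM, with overlapping intervals, while Wnt5a was at 80.5 CPM (76.4 to 84.9) in Cre- 1 and 29.1 CPM (24.4 to 34.4) in Cre+ 2 and Wnt7b at 47.5 CPM (44.3 to 50.9) and 33.4 CPM (28.3 to 39.1). Those 2 pairs of intervals did not overlap, and they compare 2 mice. The 6 hormone-sensing cells of Cre- 3 were at 54.5 CPM for Wnt5a (17 UMIs, 31.8 to 87.3) and at 19.2 CPM for Wnt7b (6 UMIs, 7.06 to 41.9), so for Wnt7b this Cre- mouse lay below Cre+ 2.

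The widest separation in luminal cells was that of Sfrp2. It was counted at 1.54 and 1.59 CPM in Cre- 1 and Cre- 3 (97 and 106 UMIs) and at 15.05 and 17.4 CPM in Cre+ 2 and Cre+ 4 (801 and 1122 UMIs). Both Cre+ mice lay above both Cre- mice, with a log2 fold change of 3.44 (SE 0.31, unadjusted p = 0.000156, adjusted p = 0.999). The call depended on the fit, since DESeq2 gave an adjusted p of 1.8e-16. Under the study's limits on cells the log2 fold change was 2.52 (adjusted p = 0.999). Without replicate 2 it was 3.63 (adjusted p = 0.0146), a fit in which Cre+ 4 alone stood for its genotype and was assumed to vary like the Cre- mice. A Sfrp2 UMI was found in 4.07% and 3.92% of luminal cells of Cre- 1 and Cre- 3 and in 16.2% and 15.6% of those of Cre+ 2 and Cre+ 4, and the Cre- cells were the deeper ones (medians of 18918 and 21260 UMIs against 12850 and 11762). Thinned to 2000 UMIs per cell, the shares were 0.529%, 0.702%, 2.90% and 3.29%. Immune cells had shares of 1.20%, 2.57%, 2.42% and 1.85% unthinned (medians of 7711, 11635.5, 11285 and 14183 UMIs). Their levels were 1.54, 2.79, 2.06 and 1.83 CPM, with the genotypes overlapping. The summed fibroblast markers in luminal cells overlapped between genotypes as well (49.1 to 77.8 CPM in Cre- and 51.9 to 86.8 CPM in Cre+, 12 of 12 markers with UMIs in each library). Luminal cells with at most 1 fibroblast marker, a split chosen after the data had been seen, held 1.58, 1.63, 14.7 and 17.8 CPM of Sfrp2. Those with more held 1.48, 1.56, 15.3 and 15.7 CPM. Barcodes of Cre+ 4 with at most 100 UMIs were at 12.04 CPM for Sfrp2, beside 17.4 CPM in its luminal cells. The part of fibroblast RNA or free RNA in the genotype difference was not tested. Sfrp1, the other inhibitor, was at 29.6, 19.9, 34.0 and 13.1 CPM, with the genotypes overlapping.

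With Sfrp2, 4 of the 8 genes tested in luminal cells had genotypes that did not overlap, against 28.9% of the 15903 genes tested there. Wnt4 was at 5.06 and 3.76 CPM in Cre- and 3.19 and 1.41 CPM in Cre+ mice, and Wnt7b at 6.26 and 5.12 against 3.61 and 1.79 CPM. Wnt11 was at 0.285 and 0.120 against 0.394 and 0.855 CPM, on 102 UMIs in all. The luminal cells of Cre+ 4, the extreme library for these 3 genes, stood apart from the other 3 libraries in their summed markers, with luminal progenitor markers at 6090 CPM (10 of 10 markers) against 13047 to 14357 CPM and alveolar markers at 4039 CPM (10 of 10) against 10877 to 13622 CPM. Their squamous markers were at 454 CPM (9 of 10) against 57.8 to 89.1 CPM and their basal markers at 478 CPM (10 of 10) against 90.2 to 146 CPM. The part of these markers in the genotype values was not tested. Hormone-sensing cells, in which Wnt4 and Wnt7b were highest, numbered 307 and 6 in Cre- 1 and Cre- 3 and 78 and 0 in Cre+ 2 and Cre+ 4. Their part in the luminal values was not tested. Wnt5a, Wnt5b, Sfrp1 and Lgr4 overlapped, and Cre+ 4 was the extreme library for Wnt5b (9.61 CPM, lowest) and Lgr4 (41.6 CPM, highest).

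In fibroblasts, Wnt5a and Wnt11 were lower in Cre+ mice at an unadjusted p under 0.05. Wnt5a was at 120.2 and 42.6 CPM in Cre- 1 and Cre- 3 and at 23.4 and 23.0 CPM in Cre+ 2 and Cre+ 4. Both Cre+ values lay below both Cre- values, which themselves differed widely (log2 fold change -1.77, SE 0.50, unadjusted p = 0.0156, adjusted p = 0.733). DESeq2 called this gene (adjusted p = 0.0228), as did edgeR without the filter on low counts (adjusted p = 1.02e-05). The log2 fold change was -0.85 without replicate 1 and -0.72 under the study's limits on cells (adjusted p = 1.00 for both). Fibroblasts without a Pi16 or Dpp4 UMI, which held more Wnt5a, were 130 of 301 and 239 of 607 in the Cre- and 102 of 588 and 42 of 153 in the Cre+ mice, and their part in the result was not tested. Within the cells with such a UMI the genotypes did not overlap (54.4 and 35.9 against 19.0 and 21.0 CPM), and within those without they did (210.5 and 66.9 against 75.3 and 32.2 CPM). Wnt11 was at 54.3 and 49.8 CPM in Cre- and 38.9 and 37.3 CPM in Cre+ mice, a narrow separation (-0.42, SE 0.13, unadjusted p = 0.0251, adjusted p = 0.785). Under the study's limits on cells this difference was -1.17 (adjusted p = 1.00). Wnt5b and Rspo1 lay lower and Lgr4 higher in both Cre+ mice without passing, and Sfrp1, Sfrp2, Wnt4, Wnt7b and Rspo3 overlapped. The genotypes thus did not overlap for 5 of the 10 genes in fibroblasts, against 34.4% of the 13320 genes tested there.

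Whether the genotype difference itself differed between fibroblasts and luminal cells was tested in 1 model of both classes, which called 0 of the 10 genes (0.00604% of 16568 genes, with 620 at an unadjusted p under 0.05). The difference of differences was -3.55 for Sfrp2 (SE 0.26, unadjusted p = 1.91e-05, adjusted p = 0.106), -2.20 for Wnt5a (SE 0.39, unadjusted p = 0.00187, adjusted p = 1.00) and -2.10 for Wnt11 (SE 0.65, unadjusted p = 0.0200, adjusted p = 1.00).

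**Figure D5:**
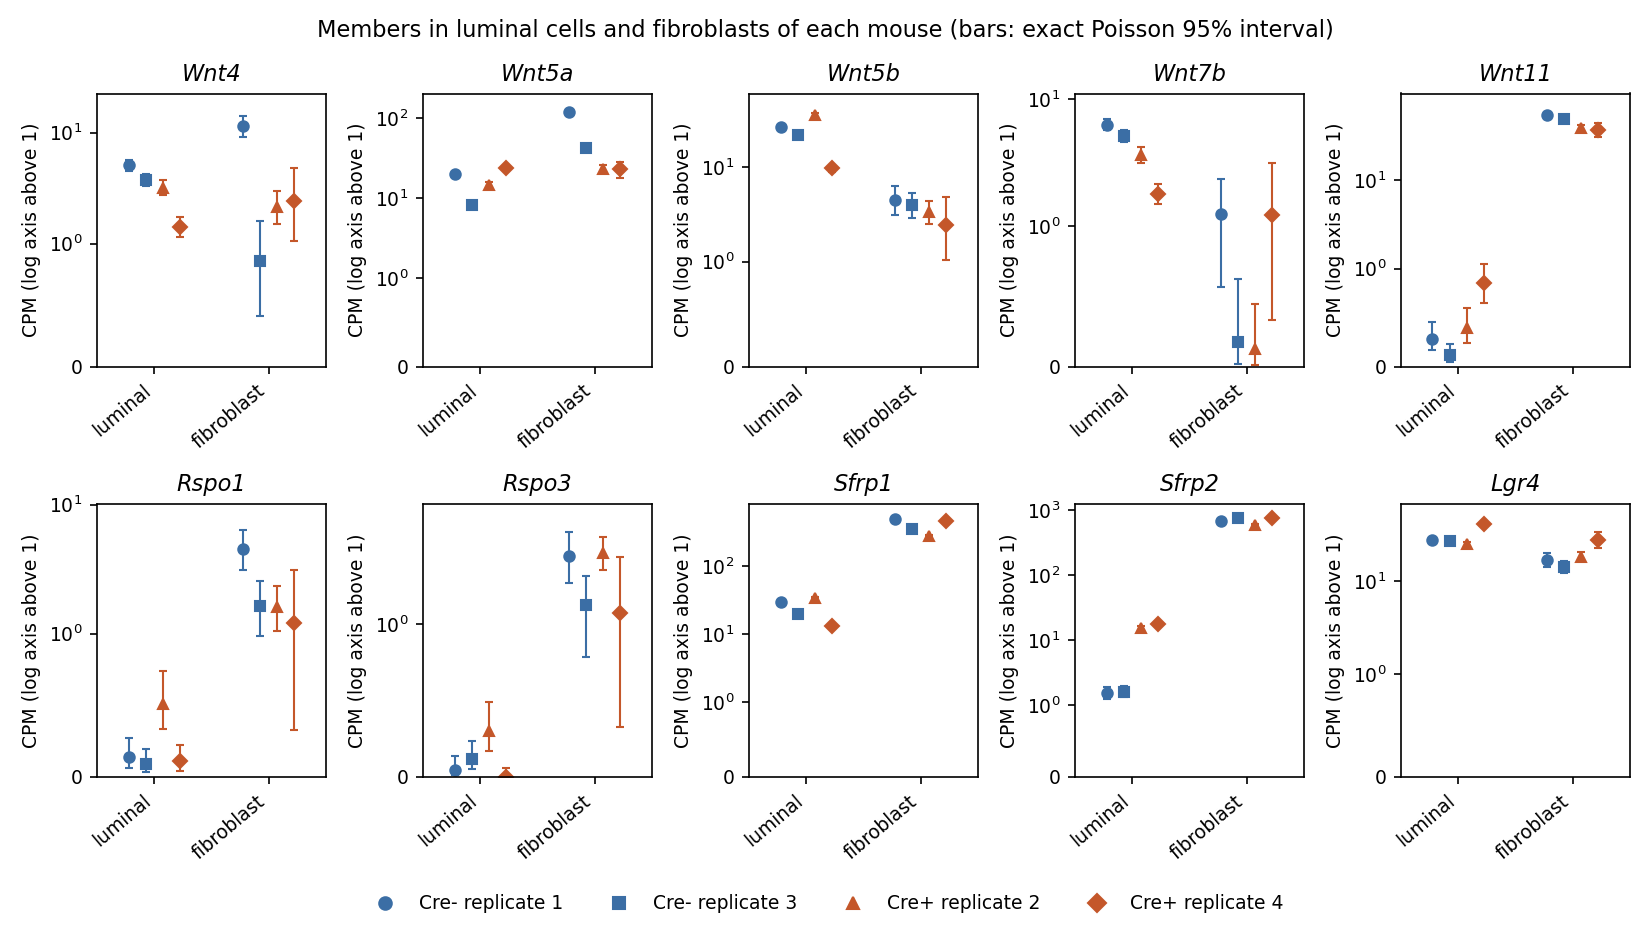
CPM of each of the 10 genes in luminal cells and fibroblasts, with 1 symbol per mouse (blue Cre-, orange Cre+), exact Poisson 95% intervals as bars and an axis that is logarithmic above 1 CPM. In luminal cells Sfrp2 stands at 15.05 and 17.4 CPM in the Cre+ mice and at 1.54 and 1.59 CPM in the Cre- mice, while in fibroblasts its 4 values overlap between genotypes.

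In mural cells, Wnt5a was at 49.3 and 61.4 CPM in Cre- and 20.3 and 35.3 CPM in Cre+ mice, and Lgr4 at 16.9 and 19.3 against 15.9 and 7.40 CPM. Neither pair of ranges overlapped, with 23 to 76 Wnt5a UMIs and 9 to 26 Lgr4 UMIs per library (exact permutation test, p = 0.333 for each), and these were 2 of the 4 genes that passed the filter on low counts, against 29.5% of 9202 genes. The mural cells of Cre+ 4 held mural markers at 7696 CPM and fibroblast markers at 13365 CPM, against 15440 to 15523 CPM and 5177 to 6120 CPM in the other 3 libraries, and the part of this was not tested. In endothelial cells each of the 10 genes was at most 6.91 CPM in every library, except Sfrp1 in Cre- 3 and Cre+ 2 (27.6 and 10.9 CPM) and Sfrp2 in Cre- 3 (13.3 CPM).

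The other genes of the pathway were 80 in 5 lists. Their calls come from the main fit, and the alternative fits were not examined for them. Levels of these genes are means over the sums of a class. The basal calls rest on 3 sums, of 14, 10 and 145 cells in Cre- 3, Cre+ 2 and Cre+ 4. Hormone-sensing calls rest on 2 sums, of 307 and 78 cells in Cre- 1 and Cre+ 2. Of 17 other ligands, 7 passed the filter on low counts and were tested between classes. Fibroblasts exceeded luminal cells for 6 of them, with Wnt2 at 95.1 against 0.0768 CPM (log2 fold change 10.39, adjusted p = 6.9e-12), Wnt9a at 37.6 against 1.502 CPM and Wnt10b at 6.47 against 0.118 CPM. In the genotype fits, 3 of the 17 ligands could be tested within luminal cells and 6 within fibroblasts. A ligand near 0 in luminal cells could be tested between classes only where another class held it. The count of 6 of 7 therefore says little about ligands as a family. Basal cells exceeded luminal cells for 3 ligands, Wnt6 (46.1 against 0.595 CPM, 6.23, adjusted p = 7.7e-05), Wnt10a (12.3 against 0.215 CPM) and Ndp, the Norrin ligand of Frizzled-4 (16.6 against 0.906 CPM). Of all genes, 7.83% were called higher in basal cells, and the filter limits this count of ligands too. Hormone-sensing cells exceeded luminal cells for 0 of the 7, where 7.51% of all genes were called higher. Ndp, with no UMI in hormone-sensing cells, was at least 6.61-fold lower there.

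Of 13 other secreted inhibitors, 8 were tested. In fibroblasts 7 were higher and 1 lower than in luminal cells, against 32.0% and 29.3% of all genes. The filter limits this count as it does that of the ligands, since the genotype fits tested 4 of the 13 within luminal cells and 7 within fibroblasts. Sfrp4 was at 259 against 0.253 CPM (10.23, adjusted p = 1.2e-10) and Dkk3 at 65.1 against 0.477 CPM, while Wif1, the Wnt inhibitory factor, was at 8.03 against 25.6 CPM (-2.38, adjusted p = 0.0107). Mural cells held no Sfrp4 or Wnt2 UMI, at least 416-fold and 186-fold lower than fibroblasts. Basal cells exceeded luminal cells for 2 inhibitors, Sostdc1, which binds LRP co-receptors (60.9 against 0.401 CPM, 7.45, adjusted p = 1.9e-05), and Notum, which removes the lipid of Wnt proteins (8.51 against 0.346 CPM). The share of all genes called higher in basal cells was 7.83%, and the filter limits this count as well.

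Of 22 receptors, all were tested. In hormone-sensing cells 1 was higher and 5 were lower than in luminal cells, among them Rnf43 (11.8 against 31.6 CPM) and Znrf3 (5.84 against 19.8 CPM), the ubiquitin ligases that R-spondin and LGR signaling holds off Frizzled receptors. This stood beside the lower Lgr4 of the same cells. In basal cells 4 were higher, among them the R-spondin receptor Lgr6 (118 against 30.2 CPM, 1.80, adjusted p = 0.0214), and 1 was lower, Lrp5. In fibroblasts 9 were higher, with Fzd1 at 125 against 9.26 CPM, and 8 lower, where 32.0% of all genes were called higher and 29.3% lower. This count therefore says little about the receptors in particular. Of 16 genes of Wnt secretion and signal transduction, Porcn, which attaches the lipid to Wnt proteins, was higher in basal cells (22.6 against 3.12 CPM, 2.88, adjusted p = 9.9e-05), and Wls, which carries Wnt proteins to the surface, was higher in fibroblasts (242 against 81.6 CPM, 1.72, adjusted p = 4.6e-07). Of 12 target genes, 11 were tested. Basal cells exceeded luminal cells for 3 (Nkd2, Nkd1 and Tcf7) and hormone-sensing cells fell below them for 3 (Cd44, Tnfrsf19 and Nkd2), with Nkd2 at 95.4 CPM in basal, 16.6 CPM in luminal and 0.585 CPM in hormone-sensing cells. Against luminal cells, 7.83% of all genes were called higher in basal cells and 8.29% lower in hormone-sensing cells. In the genotype comparisons 0 genes of any of the 5 lists were called.

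The genes whose pattern was most like that of each member were sought by Pearson's correlation of log2(CPM + 1) over the 26 sums, among 12538 genes that were neither members nor markers of the classes. The sums share libraries and classes, so the values describe likeness alone. Wnt4 was most like the uroplakin gene Upk2 (r = 0.94) and Wnt7b most like Vtcn1 (0.93), an immune checkpoint ligand of epithelia, followed by the integrin gene Itgb6 (0.91). Wnt5a was most like Tead3 (0.92), a transcription factor of the Hippo pathway, and the BMP receptor gene Bmpr1a (0.91). Among the fibroblast genes, Sfrp1 was most like Dclk1 (0.96), Sfrp2 most like Gxylt2 (0.94) and Cacna1g (0.93), and Wnt11 most like Adam23 (0.86), with the cytokine gene Il33 (0.85) and Cacna1g (0.84) next, so a calcium channel gene was shared by the last 2 lists. Rspo3 was most like Gm12122 (0.90) and Rspo1 most like Rai2 (0.80). Wnt5b was most like Shroom3 (0.90), which shapes the apical side of epithelial cells, and Lgr4 most like Arhgap44 (0.93).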

How the data were processed

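Single-cell suspensions of 4 tumors, 1 mouse each, were sequenced with a droplet 3′ kit. The authors aligned and counted the reads with Cell Ranger (6.1.2 for replicates 1 to 3 and 4 for replicate 4, per the labels), and the deposited values are raw UMI counts per gene and barcode. The labels name a human genome build although the gene identifiers are those of mouse, so no coordinates were taken from the files. The deposited totals were 112729231 to 157662955 UMIs per library, which sets the precision of the counting intervals.

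Cells were kept at 1000 or more UMIs and at most 20% mitochondrial UMIs, and classes were called from lists of 12 lineage markers and 10 epithelial markers (at least 3 and 5 markers with a UMI, the latter also with 5 UMIs per 10000), none of them a gene of the set. The members and lists were chosen with earlier results of these data known, and the cutoffs of the gate were set after marker counts and levels had been seen. No doublet caller was run, and a stricter gate was an alternative. Raw counts were summed per class and library (10 or more cells) and fitted in R 4.3.3 with the quasi-likelihood test of edgeR 4.0.16 (TMM scaling, filterByExpr, Benjamini-Hochberg adjustment, threshold 0.05). Class comparisons had the mouse as a block, since sums of the same number came from the same mouse. Splits of fibroblasts and luminal cells were tested two-sided on log2(CPM + 1), with the signs of the differences permuted exactly over mice. Alternatives were DESeq2 1.42.0, no filter on low counts, no block, each replicate left out, the study's limits on cells (200 to 5000 genes and under 30000 UMIs), a stricter gate, a cell-calling cutoff of 10978 UMIs in replicate 4 and, chosen after the data had been seen, epithelial cells with at most 1 fibroblast marker. The paper words its limits on genes and UMIs as naming the cells removed. They were read here as naming the cells kept. Fits were tested on simulated data. Python 3.11.15, numpy 2.4.6, scipy 1.17.1 and pandas 2.3.3 were used for the rest. All 10 members are named. Other pathway genes are named by the highest mean CPM among those called, at most 3 per list and comparison, and like genes by correlation, at most 3 per member with at least 50 UMIs and among genes reaching 10 CPM in a sum.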

Additional observations from a re-analysis of the deposited data

How the results depend on the processing

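In the genotype comparison of luminal cells (0 called) DESeq2 called 81 and leaving out 1 replicate gave 0 to 357, the highest without replicate 2. In fibroblasts (0) DESeq2 called 79, the fit with no filter 430 and the fits with 1 replicate left out 0 to 13. In basal cells (0) no filter gave 55. In endothelial cells (1) DESeq2 gave 18, no filter 21, a replicate left out 0 to 30, and the cell-calling cutoff and the stricter gate 0 each. For the difference of genotype effects between classes (1), DESeq2 gave 36, no filter 4, a replicate left out 0 to 9, the study's limits 0 and the stricter gate 3. Basal against luminal cells (2982, from 3 basal sums) gave 999 to 1928 with a replicate left out. The count was 1252 under the study's limits, 902 under the stricter gate and 647 with at most 1 fibroblast marker. In those 3 settings only Cre+ 4 kept at least 10 basal cells (91, 33 and 36), so each fit rests on 1 basal sum. That sum is assumed to vary like the other classes, so these 3 counts cannot be set against 2982 as an effect of the cell limits alone. A replicate left out gave 386 to 3790 for hormone-sensing cells (2503) and 2471 to 4779 for mural cells (4220). Under the study's limits, mean levels moved to 299.9 CPM for Wnt4 (from 250.5) and 53.8 for Wnt7b (from 40.5) in hormone-sensing cells, and to 20.1 for Wnt11 (from 45.1) and 4.97 for Rspo3 (from 2.26) in fibroblasts. Wnt4 was at 278.7 CPM in hormone-sensing cells with at most 1 fibroblast marker, and Sfrp2 at 814 CPM in fibroblasts of the stricter gate (from 700.1). The direction turned in 2 results, Wnt5a in basal against luminal cells (-0.32 with at most 1 fibroblast marker, on the 1 basal sum of Cre+ 4) and Wnt5b in mural cells against fibroblasts (-0.57 under the study's limits, adjusted p = 0.646). The cause was not tested in any of these, nor was the part of the lost basal sums in the basal counts.

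Without the replicate block, which stands for the mouse, 3 calls were lost: Wnt5a in basal cells (log2 fold change 1.34, adjusted p = 0.125), Wnt5b in hormone-sensing cells (-0.77, adjusted p = 0.414) and Wnt5b in mural cells (1.06, adjusted p = 0.169). The block changed no other call of a member, and the genes called without it numbered 2535 for basal, 1786 for hormone-sensing, 8777 for fibroblast, 3569 for mural and 6365 for endothelial cells. No paired analysis was possible between genotypes because they share no replicate numbers. Precision is limited by 2 mice per genotype, by few basal and hormone-sensing cells and by 213 UMIs of Rspo1 and 129 of Rspo3 in all. Without replicate 2 or 4 the Cre+ arm, and without 1 or 3 the Cre- arm, is a single library that is assumed to vary like the other arm.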
